A study of Mus musculus with 2 samples.

Results

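The genes described here are 10 imprinted genes of fetal growth control, H19, Grb10, Nnat, Peg3, Mest, Plagl1, Dlk1, Cdkn1c, Ndn and Meg3. They were taken from the array by name, as every probe that carried one of these symbols or, for Meg3, its former symbol Gtl2. This gave 20 of the array's 41170 gene probes. All 10 genes had a value, among 17243 genes with one. The study set the airway epithelium of fetal mouse lung on embryonic day E14.5 against that on E18.5, as a search for effectors of the ciliogenesis factor FOXJ1. Both samples came from wild-type male fetuses of the outbred strain CD-1. The epithelium of the airways inside the lung lobes was cut by laser from stained cryosections, and the pieces of 1 whole lung stood for each age. RNA was amplified in a single round, the E14.5 material was labelled with Cy3 and the E18.5 material with Cy5, and both were hybridised to 1 array.

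The array therefore held 1 sample per age, with no replicate and no dye swap, so that age, animal and dye cannot be told apart and no test was possible. Differences were called by size alone, at 2-fold or more between the ages. Values are log2 ratios of E18.5 over E14.5, so a negative value is a lower signal at E18.5, and they are differences for 1 probe, never a level set against another gene. The only error available is the standard error of the scanner software's own ratio, which does not cover the spread between lungs. How the software derives it was not examined. For bright Cd81, with a scanner ratio of -0.05, it was 0.20, and for Calca, at 7.76, it was 0.78. Over the member probes it had a median of 0.22 on the log2 scale. Each member probe was a single spot of 60 bases, 19 of the 20 were well above background at both ages, and none was saturated. In dissected tissue, fewer cells of a type and less RNA per cell cannot be told apart.

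Imprinted genes are transcribed mainly from the chromosome of 1 parent, according to DNA methylation set in the egg or the sperm. Many lie in domains that share a control region, and many act on fetal growth: genes read from the paternal copy tend to favour it and genes read from the maternal copy tend to restrain it. Several of them are highly expressed in fetal organs and much lower in the adult, and are described together as a network of co-expressed genes. The array does not separate the parental copies, so it carries no information on which allele was read.

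The probe sequences that carry the main contrasts are given here 5′ to 3′ in lower case. Probes of a gene are numbered from the brightest, which supplied the gene's value. H19 and Meg3 are long non-coding RNAs, and all of their probes are shown because several separate stretches of each transcript were read. On build mm8 the H19 probes lay at chr7:142385254-142385313 and chr7:142385503-142385650 on the minus strand, the second in pieces over a span of 148 bases. The Meg3 probes lay on the plus strand at chr12:110019275-110019334, chr12:109997571-110006056, chr12:110006769-110006828 and chr12:110009155-110009214, the second in pieces over 8486 bases, so that it joins parts of the transcript that are separated in the genome.
H19 probe 1: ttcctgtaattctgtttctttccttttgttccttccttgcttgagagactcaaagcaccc
H19 probe 2: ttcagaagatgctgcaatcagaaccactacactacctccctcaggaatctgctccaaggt
Meg3 probe 1: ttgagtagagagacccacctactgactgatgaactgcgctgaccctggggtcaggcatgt
Meg3 probe 2: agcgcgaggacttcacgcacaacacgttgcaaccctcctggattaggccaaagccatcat
Meg3 probe 3: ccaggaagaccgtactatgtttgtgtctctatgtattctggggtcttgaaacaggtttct
Meg3 probe 4: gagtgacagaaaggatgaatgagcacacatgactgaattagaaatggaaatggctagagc

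For Grb10, Peg3 and Dlk1 further probes are shown, since they either repeated probe 1 or departed from it. The Grb10 probes lay on the minus strand of chromosome 11 at chr11:11870574-11870633 and chr11:11833580-11834228, the latter in pieces over 649 bases. The Peg3 probe lay at chr7:6311815-6311874 on the minus strand and the Dlk1 probe at chr12:109908025-109908084 on the plus strand. No annotation of exons on mm8 was used here.
Grb10 probe 2: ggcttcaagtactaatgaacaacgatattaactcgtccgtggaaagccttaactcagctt
Grb10 probe 3: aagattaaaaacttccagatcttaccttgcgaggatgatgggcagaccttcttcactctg
Peg3 probe 2: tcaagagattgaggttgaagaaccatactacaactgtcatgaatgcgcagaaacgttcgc
Dlk1 probe 2: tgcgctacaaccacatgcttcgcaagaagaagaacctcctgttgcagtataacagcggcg

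Grb10, H19 and Nnat were each more than 4-fold lower at E18.5, Meg3 was 2.14-fold higher, and the other 6 genes stayed within 2-fold. Thus 3 of 10 members were at least 2-fold lower, where 10.1% of all genes with a value were, and 1 of 10 was at least 2-fold higher, where 17.3% of all genes were. Past 2-fold either way stood 4 of the 10, against 27.4% of all genes. The median log2 ratio of the members was -0.42, with 6 below 0 and 4 above, and that of all genes was 0.06. The members did not move as a unit: Grb10 was lower than all but 0.992% of the genes, H19 than all but 1.74% and Nnat than all but 2.11%, while Meg3, the highest member, was equalled or passed by 15.7% of the genes.

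**Figure D1:**
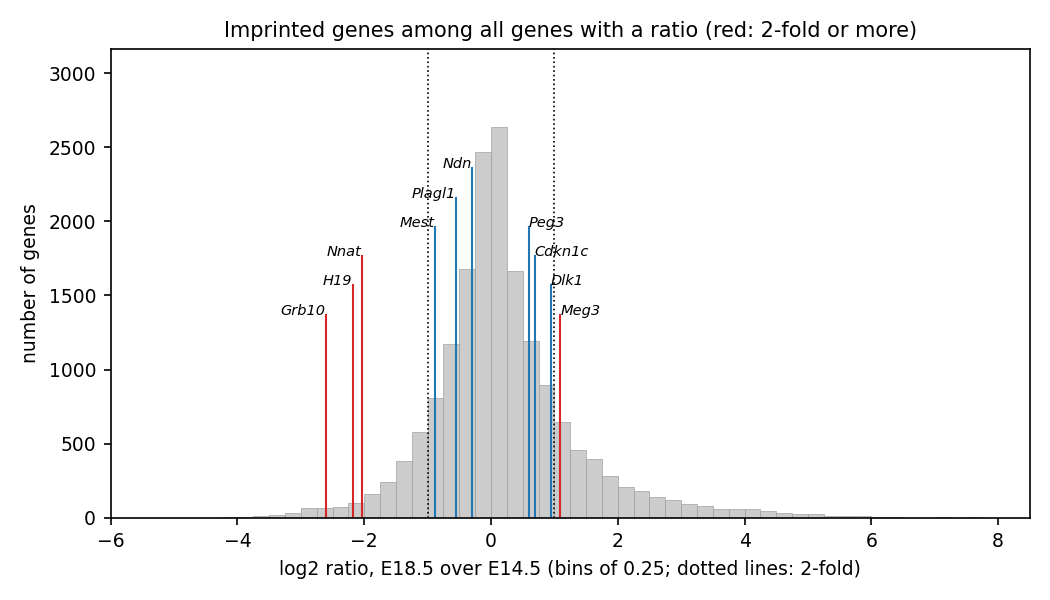
Histogram of the log2 ratio (E18.5 over E14.5, in equal bins) of all 17243 genes with a value, with a vertical line for each of the 10 imprinted genes, red where the gene was past 2-fold. Grb10, H19 and Nnat stand in the left tail, from -2.61 to -2.04, and Meg3 at 1.10 stands just past the right dotted line. Line heights only separate the names.

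Among the maternally expressed genes that restrain growth, Grb10 was much lower at E18.5 and Cdkn1c was not. Grb10 encodes an adaptor protein that binds the insulin and IGF1 receptors and damps their signal. Its brightest probe, at chr11:11830965-11831024 on the minus strand, read 138665 at E14.5 and 22742 at the later age, on the scale of normalized intensity used for all intensities below. The signal was thus 6.10-fold lower, a log2 ratio of -2.61, where the scanner software gave -2.68 with a standard error of 0.32.

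The other 2 Grb10 probes pointed the same way. Probe 2 went from 9406 to 1278, a log2 ratio of -2.88 and a 7.36-fold lower signal. Probe 3 was dim, at 402 and 143, with a log2 ratio of -1.49 at the background offset of 50 and -1.75 at an offset of 16. The scanner software gave -2.37 with a standard error of 0.30. What else makes up this gap was not tested. All 3 probes were at least 2-fold lower, as was the case for 2.07% of the 2217 genes with 3 or more measured probes. The distance of 1.39 between the highest and the lowest of them was reached by 11.1% of the 6889 genes with 2 or more measured probes, so the probes shared a direction and differed in size.

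Cdkn1c encodes p57Kip2, an inhibitor of the cyclin-dependent kinases that drive the cell cycle. Its only probe, at chr7:143268238-143268297 on the minus strand, read 80864 at the earlier age and 130684 at the later. The signal was 1.62-fold higher, a log2 ratio of 0.69, against 0.57 with a standard error of 0.21 from the scanner software. This probe lies at the bright end of the array, where the median ratio of the named probes of like intensity was itself 0.34 after normalization, and Cdkn1c stood 0.36 above them. Centred on the median alone, without loess, its ratio was 1.18, so its size of change depended on how the bright end was treated, though it stayed above 0.

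Both maternally expressed non-coding RNAs passed 2-fold, in opposite directions. H19 is among the most abundant RNAs of fetal tissues, is read from the maternal copy, and shares enhancers and a methylated control region with the paternally read growth factor gene Igf2. H19 probe 1 read 210004 at E14.5 and 46208 at E18.5, a log2 ratio of -2.18 and a 4.54-fold lower signal. Probe 2 read 92217 and 10651, a log2 ratio of -3.11 and an 8.66-fold lower signal. The scanner software gave -2.25 with a standard error of 0.29 and -3.20 with a standard error of 0.36.

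Both H19 probes were thus at least 2-fold lower, as in 4.6% of the 6889 genes with 2 or more measured probes. They lie close together on the chromosome, and their ratios were 0.93 apart, a distance reached by 25.9% of those genes. Probe 1 is also in the bright range, where probes of like intensity had a median of 0.31, and it stood at -2.50 relative to them. H19 is the precursor of a microRNA, miR-675, whose 2 mature arms are given below from RefSeq (GRCm38.p6, minus strand of chromosome 7), at chr7:142577112-142577133 and chr7:142577078-142577099, with the seed, bases 2 to 8, in capitals. They show what else the transcript carries. The seeds differ from each other, and neither arm was measured on this array.
mmu-miR-675-5p: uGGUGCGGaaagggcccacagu
mmu-miR-675-3p: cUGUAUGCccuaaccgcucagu

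Meg3, the maternally read RNA of the Dlk1 and Dio3 domain, was higher at E18.5 by all 4 of its probes. Probe 1 read 18948 at E14.5 and 40480 at E18.5, a log2 ratio of 1.10, where the scanner software gave 1.02 with a standard error of 0.22. Probe 2 read 10869 and 20113, a log2 ratio of 0.89. The 2 dim probes gave 0.81, from 525 to 919, and 0.66, from 434 to 685. Only the brightest probe passed 2-fold, and the median over the 4 probes was 0.85, so the call rests on the choice of probe while the direction was shared. The 4 ratios lay within 0.44 of each other, a distance that 57.0% of the genes with several probes equalled or passed.

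**Figure D2:**
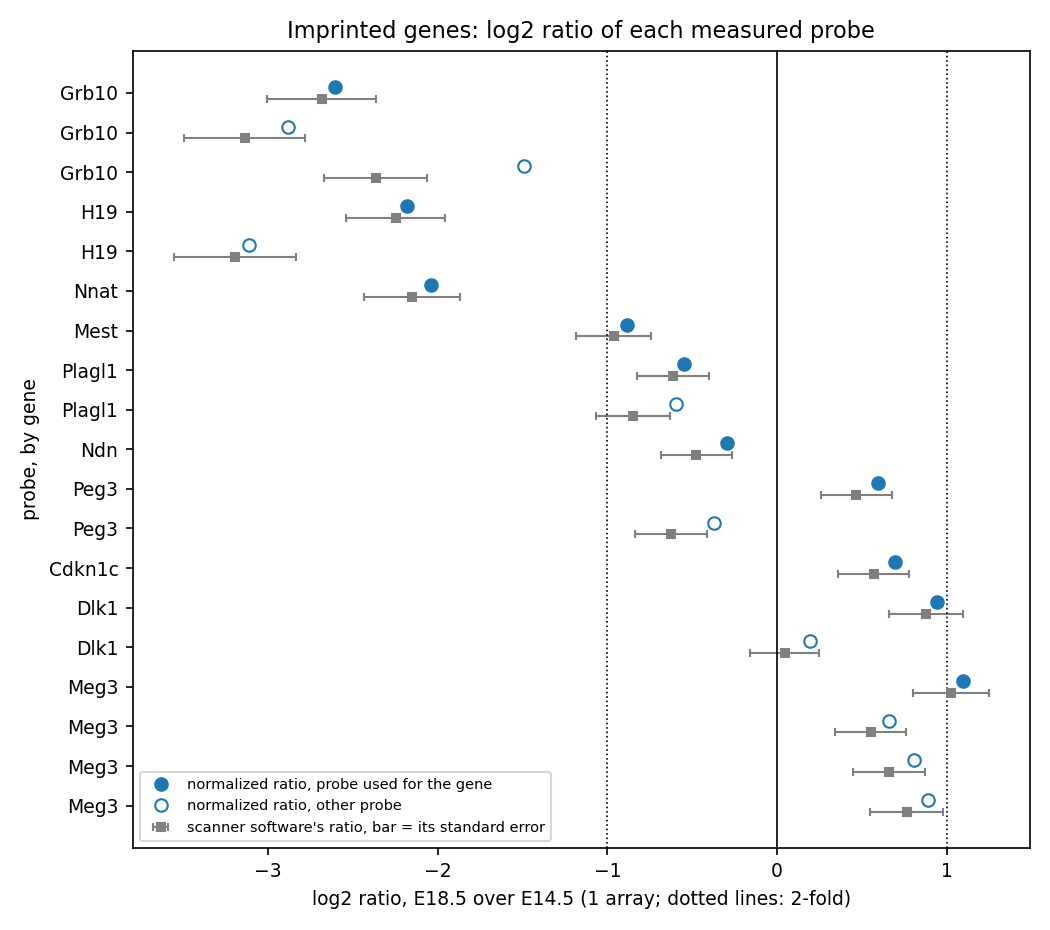
Log2 ratio (E18.5 over E14.5) of the 19 member probes measured at both ages, ordered by gene. Filled circles are the probes used for the gene and open circles the other probes, after normalization, and grey squares with bars are the scanner software's ratio and its standard error. All Grb10, H19 and Nnat points lie left of the lower 2-fold line, all Meg3 points lie right of 0, and the Peg3 probes lie on both sides of 0.

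Of the 6 paternally expressed members, Nnat was past 2-fold, and the other 5 were not. Nnat encodes neuronatin, a small proteolipid of the endoplasmic reticulum that is best known from the developing brain, and it lies inside an intron of the gene Blcap. Its only probe, at chr2:157253683-157253742 on the plus strand, read 54016 at E14.5 and 13144 at E18.5. That is a 4.11-fold lower signal and a log2 ratio of -2.04, against -2.15 with a standard error of 0.28 from the scanner software. No second probe was present to repeat it.

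Mest encodes a protein of the alpha/beta hydrolase family that is expressed in fetal mesoderm and in growing fat. Its probe, at chr6:30698289-30698348 on the plus strand, read 49859 at the earlier age and 26985 at the later. The signal was 1.85-fold lower, a log2 ratio of -0.89, and it stayed short of 2-fold with the scanner software too, at -0.96 with a standard error of 0.22. As low or lower were 12.0% of all genes, so this value was not unusual on the array.

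Plagl1, also known as Zac1, encodes a zinc finger factor that can bind and activate other imprinted genes, H19 among them. Probe 1, at chr10:12821672-12821731 on the plus strand, read 151064 and 103128, a log2 ratio of -0.55. Probe 2, at chr10:12819862-12819921, read 1479 and 977, a log2 ratio of -0.60. After loess the 2 probes differed by only 0.05, a distance that 94.4% of the genes with several probes equalled or passed. This was so although they differ widely in brightness. With the scanner software's ratio they lay farther apart, at -0.62 and -0.85. Probe 1 is among the brightest of the array, where probes of like intensity had a median of 0.41. Its ratio was -0.97 relative to them and -0.03 when the array was centred on the median without loess. Probe 2 was at -0.66 and -0.58 in these settings, so the close match of the probes did not hold there. The size of the Plagl1 difference was not fixed by these data.

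Peg3 encodes a large zinc finger protein whose loss slows fetal growth. Probe 1, at chr7:6310149-6310208 on the minus strand, read 6975 at E14.5 and 10540 at E18.5, a log2 ratio of 0.60. Probe 2 read 1304 and 1009, a log2 ratio of -0.37. With the scanner software they were 0.47 and -0.63, each with a standard error of 0.21, so the opposite signs were present there too. Probe 3, at chr7:6326319-6326377, was not well above background at either age. Probes on both sides of 0 were found in 34.3% of the genes with 2 or more measured probes. Peg3 has therefore no settled direction.

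Dlk1 encodes a membrane protein with EGF-like repeats, related to the Notch ligands and known for holding preadipocytes undifferentiated. Probe 1, at chr12:109908264-109908323 on the plus strand, read 29122 and 56019, a log2 ratio of 0.94, just short of 2-fold. Probe 2, which lies just before probe 1, read 14850 and 17004, a log2 ratio of 0.20, against 0.04 with a standard error of 0.20 from the scanner software. By probe 1 the gene was higher at E18.5, and by probe 2 the difference was no larger than the scanner software's standard error. The distance between the 2 probes, 0.75, was reached by 35.0% of the genes with several probes.

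Ndn encodes necdin, a growth suppressor of the MAGE family that is best known from neurons. Its probe, at chr7:62227911-62227970 on the plus strand, read 2606 and 2121, a log2 ratio of -0.30, where the scanner software gave -0.48 with a standard error of 0.21. As low or lower were 29.3% of all genes. By the probes used, Ndn was the member nearest to 0, though Peg3 was nearer by the median over its probes, at 0.11, and Plagl1 was nearer without loess.

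**Figure D3:**
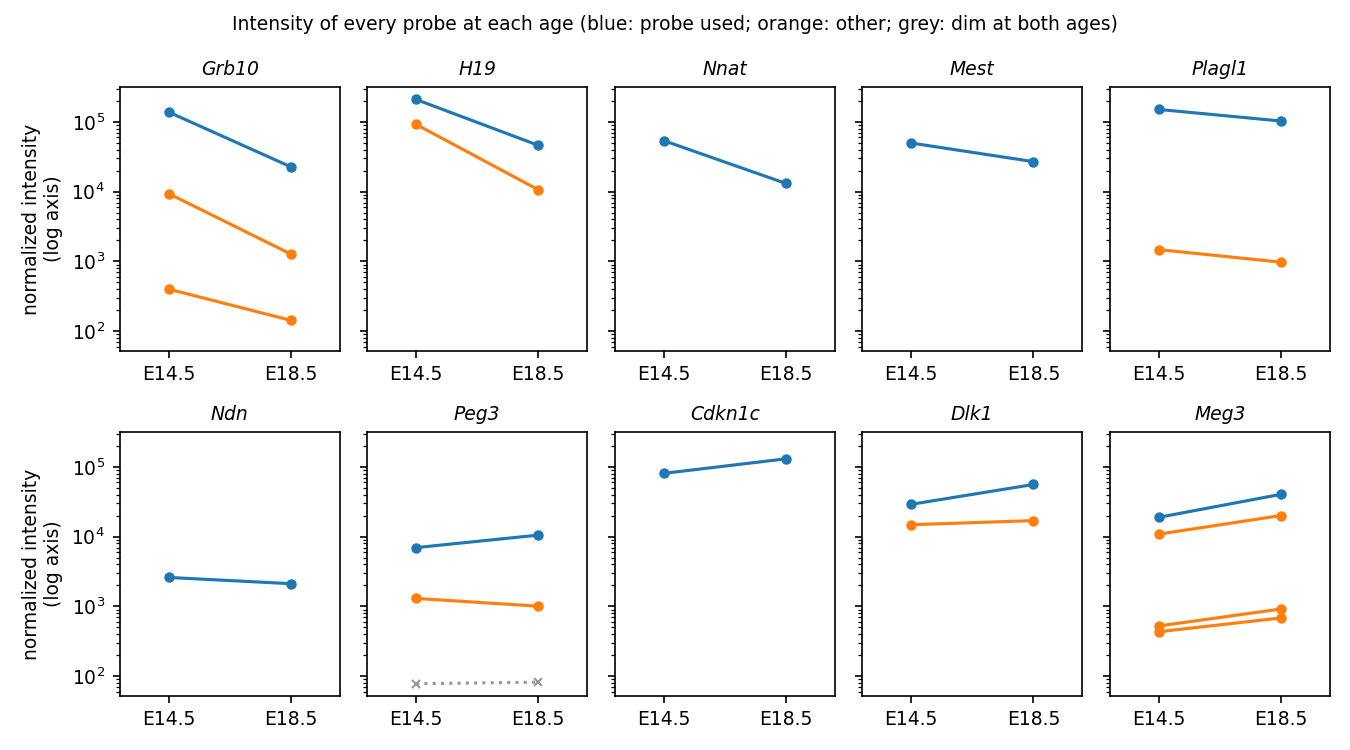
Normalized intensity (log axis) of every probe of the 10 genes at E14.5 and E18.5, 1 panel per gene, blue for the probe used, orange for other probes and grey for the Peg3 probe that was dim at both ages. Lines of 1 gene run in parallel for Plagl1, slope the same way at unequal steepness for Grb10, H19, Dlk1 and Meg3, and run in opposite directions for Peg3. Heights of different probes are not comparable as amounts of RNA.

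The members were set beside the other genes of their imprinted domains, which are listed in the literature as imprinted in at least some tissues, often only the placenta or the brain. Over all domains 63 such genes were listed and 57 had a value, of which 8 passed 2-fold upwards and 4 downwards, and 45 did neither. Of all genes with a value, 17.3% passed upwards and 10.1% downwards. The median of the 57 was -0.13. Highest was Pon3 at 3.33, from 4839 to 48736, with a second probe at 3.39. Pon2 at 1.61, with other probes at 1.69 and 0.43, and Gatm at 1.61 were also higher. These genes lie outside the members' domains, and the remaining higher ones are named with their domains below. The 4 lower genes were Calcr at -1.89, Slc38a4 at -1.66 with a dim second probe at -0.83, Asb4 at -1.43 and Magel2 at -1.26. Second probes of Calcr and Asb4, well above background at E14.5 only, gave bounds of -0.24 and -0.67, which the true ratio may exceed in size. The Calcr value rests on a signal of 87 at E18.5. Dim probes matter here: with the scanner software's ratio 14 of these genes were at least 2-fold lower. Kcnq1ot1, Rtl1, Zfp264 and Peg13 were not analysed here.

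In the domain of H19, the nearby Igf2, a growth factor read from the other parental copy, was lower by both of its probes, but by very different amounts. Its brightest probe read 166176 at E14.5 and 99267 at E18.5, a log2 ratio of -0.74. The other read 105967 and 19810, a log2 ratio of -2.42, close to the -2.18 of H19 probe 1. Ins2, which lies next to Igf2, was dim, with log2 ratios of -0.86 and -0.75. The scanner software gave Ins2 log2 ratios of -1.51 and -1.69, past 2-fold. After normexp and loess, H19 alone was past 2-fold by the probes used, and with the dimmer Igf2 probe Igf2 was too. The brightest Igf2 probe is about as bright as Plagl1 probe 1, where probes of like intensity had a median of 0.41. Whether Igf2 passes 2-fold by that probe may thus depend on how the bright end is treated.

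The domain of Cdkn1c, named after Kcnq1, stood on the other side. Of its 9 other genes with a value, 4 passed 2-fold upwards and 0 downwards, with a median of 0.78. Slc22a18, a transporter gene, had a log2 ratio of 3.02, from 1791 to 14486, and a second probe at 1.05. Kcnq1, a potassium channel gene, had 2.82, from 1420 to 10018. Osbpl5 had 1.30 and Phlda2, which restrains placental growth, had 1.09 with a second probe at 1.01. Tspan32 at 0.78, Nap1l4 at 0.15, Cd81 at 0.01, Ascl2 at -0.04 and Tssc4 at -0.59 were within 2-fold, as was Cdkn1c itself at 0.69.

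In the domain of Dlk1 and Meg3, Mirg, a maternally read RNA that carries microRNAs, was past 2-fold like Meg3, at 1.54, from 2724 to 7896. Rian, the RNA between Meg3 and Mirg, had a brighter probe at -0.40, from 4930 to 3745, and a dim one at 1.37, from 212 to 550. Dio3, which inactivates thyroid hormone, was at -0.86 by a dim probe. A transcript named AI850416, read between Meg3 probes 4 and 1, was at -0.24, unlike the Meg3 probes on both sides of it, and it was named after its value was seen.

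Near Ndn, 6 of 7 other genes were below 0 and 1 of them past 2-fold. Magel2, a neighbour of Ndn in the same gene family, was at -1.26 by a dim probe, Peg12 at -0.66, Mkrn3 at -0.59, Snrpn at -0.40, Snurf at -0.29 and Ube3a at -0.13. Atp10a was at 0.15. Ndn at -0.30 lay inside this range. Near Peg3, Zim1 was at -0.79 and Usp29 at -0.59 with a second probe at 0.06, all by dim probes.

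Around Mest, Copg2 had 0.29 by its brightest probe and 0.38, -0.83 and -0.22 by the others, and Klf14 had -0.46. Blcap, which contains Nnat, had 0.81 by its brightest probe, from 21265 to 37196, and -0.89 and 0.04 by dimmer ones, so the host gene and Nnat had ratios of opposite sign by the probes used. Near Grb10, Ddc, an enzyme of dopamine and serotonin synthesis, was at -0.99 with a second probe at -1.90, and Cobl was at 0.29.

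Probes of other transcripts within 150 kb of each member's probes were counted as well, whether listed as imprinted or not. Of all 32846 probes with a value on the array, 8.95% were at least 2-fold lower and 13.7% at least 2-fold higher. Around Grb10, 3 of 4 probes with a value passed 2-fold downwards and 0 upwards, namely the dimmer Ddc probe and both measured probes of Fignl1, a DNA repair gene, at -2.46 and -2.67. Around H19, 2 of 10 passed downwards, among them the dimmer Igf2 probe, and 1 upwards. Around Plagl1, Ndn and Nnat, 1 of 4, 1 of 3 and 1 of 5 passed downwards and 0 upwards. Around Cdkn1c 5 of 12 passed upwards and 0 downwards, and around Mest 3 of 11 upwards and 0 downwards. The 3 around Mest were probes of Copg2as2 at 2.28, from 336 to 1638, Cep41 at 1.39 and Cpa1 at 1.19. Other Cep41 probes, at 0.93, 0.75 and 0.05, were within 2-fold. The 12 probes around Cdkn1c carried 6 names, and the 5 were those of Kcnq1, Slc22a18 and Phlda2, already counted in its domain. Dlk1 and Meg3, each counted among the neighbours of the other, had 1 of 5 upwards and 0 downwards, and Peg3 had 0 of 4 either way. Fignl1, Copg2as2, Cep41 and Cpa1 were named after their values were seen.

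**Figure D4:**
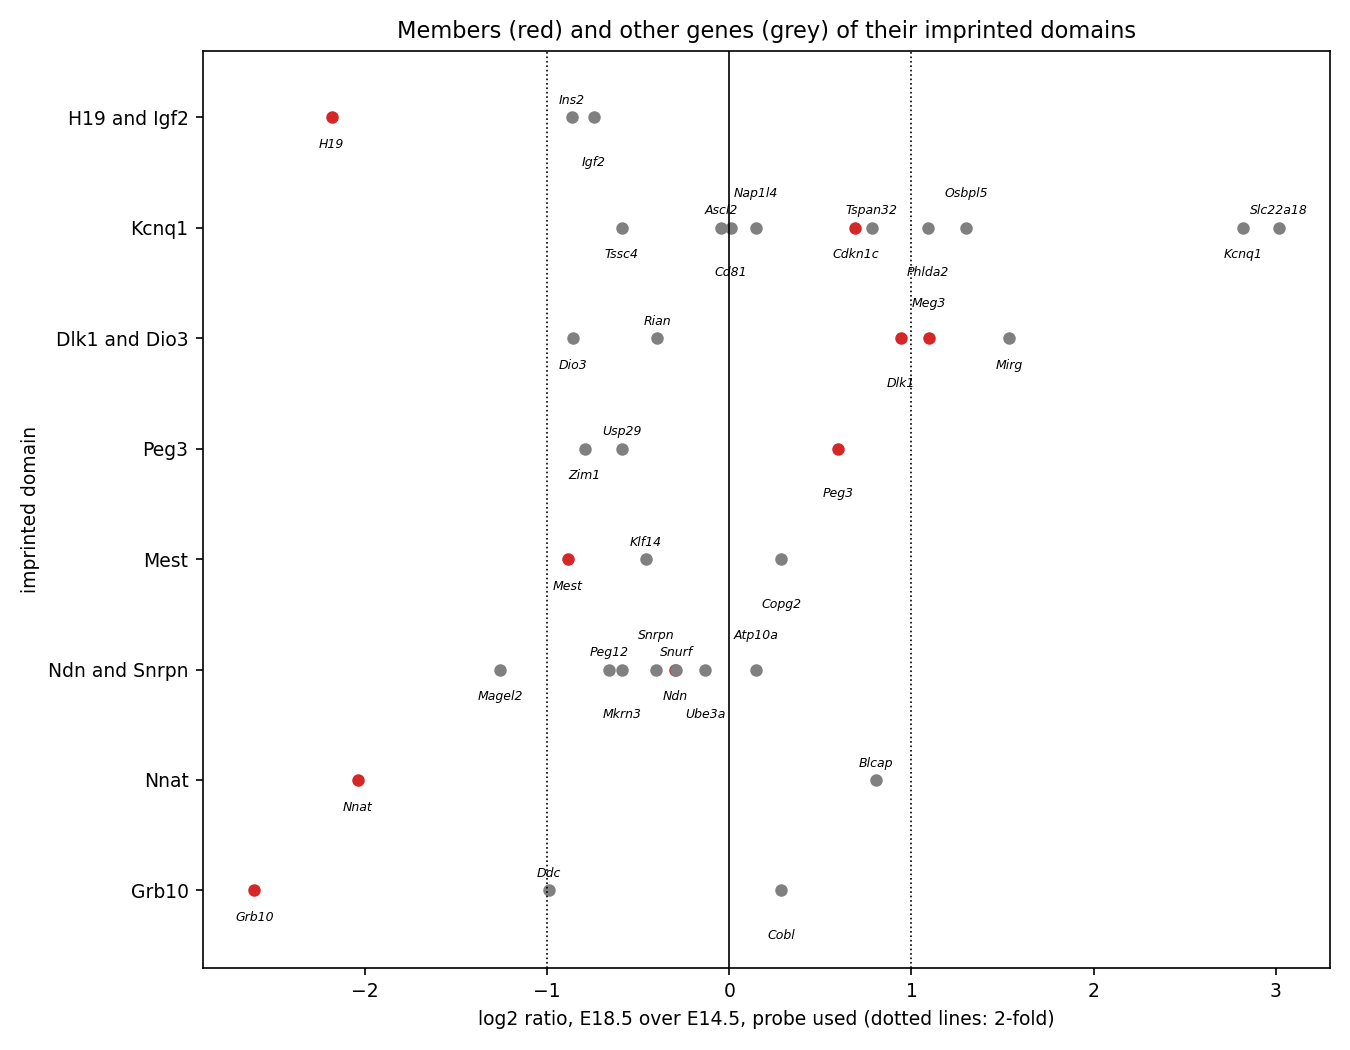
Log2 ratio (E18.5 over E14.5) of the imprinted genes studied (red) and of the other listed genes of their domains (grey), 1 row per domain, by the probe used for each gene. H19, Nnat and Grb10 lie left of their domain neighbours, and Cdkn1c, Dlk1 and Meg3 lie in rows that extend past the upper 2-fold line. Plagl1, with no listed neighbour, is left out.

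Imprints are kept through cell division by the maintenance methyltransferase Dnmt1 and its partner Uhrf1, and are protected in the early embryo by the zinc finger protein ZFP57 with Trim28. Of 15 genes listed for these functions, 14 had a value, 6 passed 2-fold downwards and 0 upwards, with a median of -0.93. Uhrf1 was lowest at -4.35, from 39473 to 1932, with a second probe at -3.70. Hells, a chromatin remodeller needed for methylation, was at -3.12, and Dnmt1 at -2.29, from 11381 to 2323.

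Genes of proliferation were lower beside them. All 20 listed genes of DNA replication and mitosis were at least 2-fold lower at E18.5, with a median log2 ratio of -2.62, and Nusap1, Bub1 and Mki67 were lowest at -4.14, -4.08 and -3.54 by the probes used. Their summed normalized intensity went from 700414 to 128769. The ratios of Grb10, H19 and Nnat lie within the span of this list, which reaches from -4.14 to -1.26. Its part in the members' values was not tested.

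The genes that act with the members were counted by role. Of 7 measured genes of the insulin and IGF pathway, on which Grb10 acts, 4 were at least 2-fold lower and 1 higher, with a median of -1.24. Igf1r, a receptor that Grb10 binds, was higher at 1.52, from 6607 to 19007, with other probes at 1.29, 1.16 and 0.25. Igf2bp1, an RNA-binding protein that binds Igf2 and H19 transcripts, was at -1.90 with other probes at -1.10 and -0.34. The ligand Igf1 was at -1.82 with others at -2.07 and -1.72, and the receptor substrate Irs1 was at -1.46 with a dim one at -0.62.

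Of 11 cyclins, kinases and other inhibitors related to Cdkn1c, 5 were at least 2-fold lower and 2 higher, with a median of -0.71. The lower ones were led by Ccna2 at -3.34, Ccne2 at -2.96 and Ccne1 at -2.62. The 2 higher ones were the paralogs of Cdkn1c, Cdkn1a at 1.80, from 3744 to 13038, and Cdkn1b at 1.05, from 2917 to 6031. A second, dim Cdkn1b probe was at -0.04.

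Among 10 genes of the Notch pathway, to which Dlk1 is related, 4 were at least 2-fold higher and 2 lower, with a median of 0.54. The ligand Jag1 was at 2.49 with a dim second probe at 0.78, and the target Hes1 at 1.61. The receptor Notch2 was at 1.37 by its brightest probe and at 0.18 and -0.07 by the dimmer ones, while the ligands Dll1 and Dll4 were at -1.44 and -1.19. Of 7 measured paralogs of Plagl1, Grb10, Dlk1 and Ndn, none passed 2-fold (0 higher and 0 lower), and their median was -0.71. Grb10, at -2.61, was far below both of its paralogs, which stayed within 2-fold.

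The label of the tissue was checked against cell type markers, and several other cell types were detectable. All 12 epithelial markers were measured, 4 at least 2-fold higher and 1 lower, with a median of 0.29, 7 above 0 and 5 below. Krt18, Cdh1 and Elf3 were highest at 1.59, 1.34 and 1.28, and Cldn4 was lowest at -1.17. The summed intensity of the 12 went from 373336 to 579623. Within it Krt18 went from 41452 to 125006, Krt8 from 77394 to 130528 and Krt19 from 45619 to 93096. Sums over a list add probes of different brightness and can be carried by 1 of them. Many of the imprinted genes are also known from fetal mesenchyme and muscle. Of 14 mesenchyme markers, 2 were at least 2-fold higher and 2 lower, with a median of -0.21 and a sum of 297859 at E14.5 and 398566 at E18.5. Dpt and Fn1 were higher, at 4.27 and 1.35, and Foxf1 and Lum lower, at -2.12 and -1.13. Of 6 smooth muscle markers, 5 were at least 2-fold lower and 0 higher, with a median of -1.48 and a sum of 372639 and 147345. Myh11, Actg2 and Acta2 were lowest at -2.43, -1.72 and -1.52 by the probes used.

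Most of the other lists held more higher than lower genes. Of 10 endothelial markers 4 were at least 2-fold higher and 0 lower, with a sum of 21079 and 114006, of which Kdr alone made 4090 and 71669. Of 10 leukocyte markers 7 were higher and 0 lower, with a sum of 8108 and 31277. Of 5 mesothelial markers 2 were higher, with a sum of 5943 and 48400, of which Msln alone made 4975 and 43592. Of 8 neuroendocrine markers 5 were higher and 1 lower, with a sum of 7296 and 94779, of which Calca alone made 418 and 81145. Of 8 erythroid markers 4 were lower and 2 higher, with a sum of 42242 and 12624, of which Hbb-y alone made 32911 and 1617. The globin genes Hbb-y, Hba-x and Hbb-bh1 were lowest at -4.35, -3.65 and -3.11 by the probes used. Alas2 and Epor were the higher ones, at 1.78 and 1.65, so the list had no shared direction. Of 5 measured nerve and Schwann cell markers, 1 was higher and 0 lower. The part of these cell types in the values of the 10 imprinted genes was not tested.

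**Figure D5:**
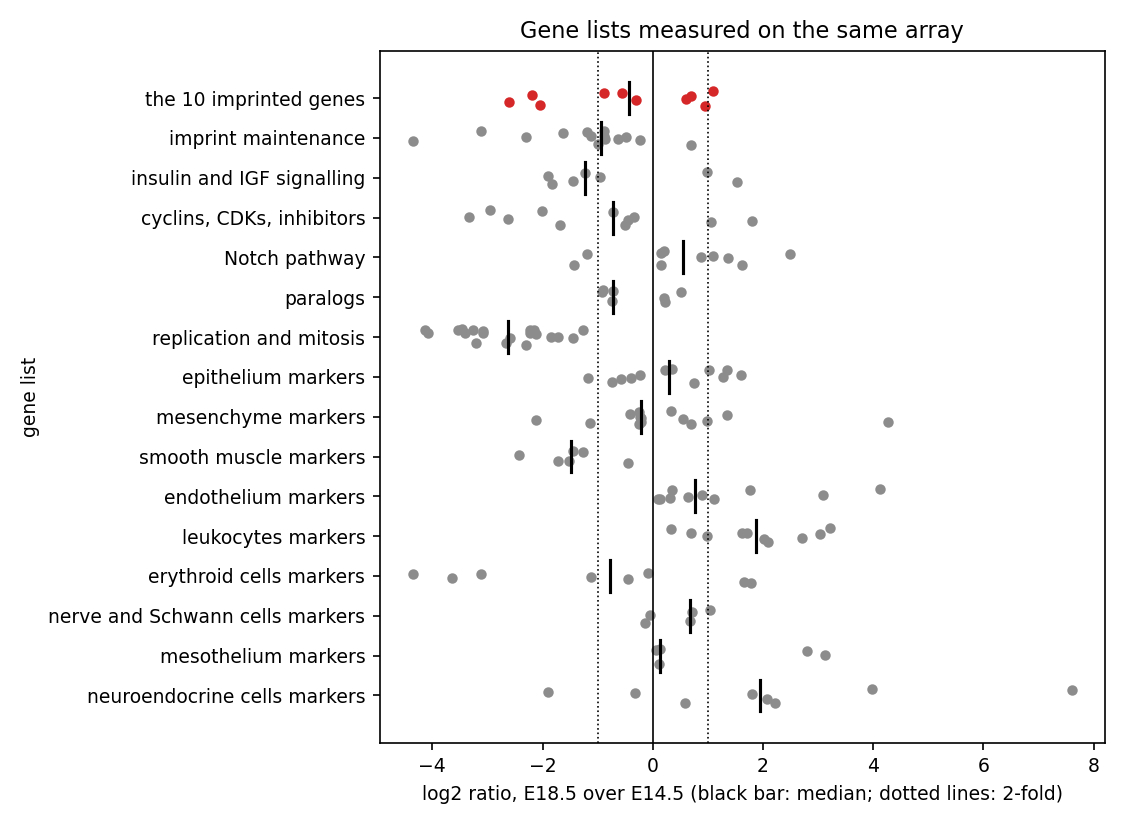
Log2 ratio (E18.5 over E14.5) of each gene in the lists named in the text, 1 row per list, with a black bar at the median. The 10 imprinted genes (red) spread from -2.61 to 1.10 with a median of -0.42, all replication and mitosis genes lie left of the lower 2-fold line, and the lists of other cell types differ in direction. Vertical scatter within a row only separates the points.

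The promoter sequences of the members were examined for CpG, the pair of bases that carries the imprint in control regions. The start-site windows used here were not matched to those control regions, so their CpG are not read as sites of the imprint. RefSeq (GRCm38.p6) gave a window from 250 bases before to 50 bases after the start site for 8 of the 10 members, 12 windows in all, of which 2 of Mest overlap almost completely. H19 and Cdkn1c had none in that table. The main Grb10 window held 45 CpG, a number that 1.93% of 32851 windows equalled or passed, where the median window held 7. The Plagl1 window held 26, which 16.9% equalled or passed, and the Nnat window 17, which 31.4% did. The 3 windows of Mest held 8, 17 and 17. Those of Peg3, Ndn and Dlk1 held 13, 11 and 9, the 2 windows of Meg3 held 13 and 1, and the other window of Grb10 held 9, which 45.8% equalled or passed.

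The bases before the start are shown for the 2 lower genes with a window, Grb10 (chr11:12037421-12037670, minus strand) and Nnat (chr2:157559828-157560077, plus strand), and the whole window for the higher gene, Meg3 (chr12:109540746-109541045, plus strand), with every CpG in capitals.
Grb10 promoter: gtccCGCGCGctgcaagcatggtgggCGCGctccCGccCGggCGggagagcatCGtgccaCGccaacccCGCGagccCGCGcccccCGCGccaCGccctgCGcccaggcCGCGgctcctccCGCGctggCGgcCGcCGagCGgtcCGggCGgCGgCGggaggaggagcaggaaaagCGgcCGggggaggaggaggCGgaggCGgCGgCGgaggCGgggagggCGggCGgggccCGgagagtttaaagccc
Nnat promoter: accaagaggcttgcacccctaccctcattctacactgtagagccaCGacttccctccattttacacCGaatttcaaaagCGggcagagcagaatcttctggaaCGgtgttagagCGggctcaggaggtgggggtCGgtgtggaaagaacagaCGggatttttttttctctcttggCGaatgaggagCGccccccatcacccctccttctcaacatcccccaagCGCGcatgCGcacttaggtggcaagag
Meg3 promoter: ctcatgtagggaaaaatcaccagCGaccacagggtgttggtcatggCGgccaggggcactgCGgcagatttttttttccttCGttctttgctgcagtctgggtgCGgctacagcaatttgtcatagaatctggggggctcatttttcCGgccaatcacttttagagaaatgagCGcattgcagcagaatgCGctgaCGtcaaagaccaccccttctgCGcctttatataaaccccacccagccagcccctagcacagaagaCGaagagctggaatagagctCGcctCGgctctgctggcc

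The letters TGCCGC, which ZFP57 is known to bind when methylated, were searched on both strands. They were found in 6 of the 12 windows, in Nnat, Plagl1, Meg3, the main window of Grb10 and the 2 overlapping windows of Mest, against 11.6% of all windows. Counted from the start site, they were at position -190 in the Meg3 sequence above, as the reverse complement GCGGCA, and at 24 in Grb10 and 27 in Nnat, past the bases shown. GGGGCCCC, a palindrome that Plagl1 can bind, was found in 1 of the 12, that of Peg3, at position -201, against 1.08% of all windows. The windows with TGCCGC belong to genes that were lower, within 2-fold and higher at E18.5, and a match of letters is no measure of binding. The letters TGCCGC hold a CpG, and their share among windows of like CpG number was not computed. Zfp57 itself, named after its value was seen, was at -1.12 by a dim probe, from 332 to 153.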

How the data were processed

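Airway epithelium of 1 lung at E14.5 and 1 at E18.5 was compared on 1 two-colour array. The sample tables were identical in 115 of 115 columns and were read as 1 array. The mean and background intensity of each spot and the log10 ratio of red over green were deposited by the authors as scanner output (Agilent Feature Extraction 9.5.3.1, per the submitters' processing notes), with coordinates on mm8 per the file headers. The authors' value table holds deposited linear intensities floored at 15, with column medians of 129 and 130.2. Its scale, centring and direction were set from comparison with the scanner values.

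Intensities were corrected with normexp (offset 50) and log2 ratios normalized by loess with 4 iterations and a span of 0.3 (limma 3.58.1, R 4.3.3), with control and outlier spots at weight 0. The script was tested on simulated data. A gene took its brightest probe well above background in at least 1 channel. Of the genes, 16316 were measured at both ages and 927 gave a bound. Names came from a RefSeq table (GRCm38.p6), which named 33096 of 41170 probes. The median background-subtracted signal was 209 for E14.5 and 282 for E18.5, where 75.2% and 78.7% of probes stood well above background. The number of arrays, 1, limits the precision. Tables were handled in Python 3.11.15. The members and gene lists were chosen with earlier results of these data known. Named were all members, the other imprinted genes past 2-fold or in the members' domains, and at most the 3 farthest genes per direction of other lists. Alternatives were other background corrections, no loess, the authors' table, the median over probes and a stricter filter on dim probes.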

Additional observations from a re-analysis of the deposited data

How the results depend on the processing

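No gene value of the 10 changed sign under the 7 alternatives run. Peg3 came to 0.11 with the median over probes of opposite sign, and Plagl1 to -0.03 without loess. Both are smaller in size than the scanner software's standard error. Grb10, H19 and Nnat stayed at least 2-fold lower in each, with log2 ratios of -2.68 to -2.23, -2.65 to -1.70 and -2.15 to -1.79. The count of members at least 2-fold higher, 1 as reported, was 3 with centring on the median without loess (Meg3, Dlk1 and Cdkn1c), 0 with the median over probes, and 2 relative to probes of like intensity, an alternative chosen after seeing the data. The members' median of -0.42 was -0.16 without loess. Of the other imprinted genes, 4 were at least 2-fold lower as reported, 14 with the scanner software's ratio, 14 with the authors' value table and 7 with an offset of 16. All genes at least 2-fold lower numbered 1738 and, with the scanner software, 2690. A smaller offset holds dim ratios less close to 0, and otherwise the cause was not tested. The scanner software moved the median of all genes from 0.06 to -0.05, and the share of calls that were higher was 63.2% as reported, 54.8% with it and 54.0% with the authors' table. No paired analysis was possible because each age had 1 sample. Signal over background limits Peg3 probe 3, Grb10 probe 3 and the dim domain genes.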
